A study of Mus musculus with 20 samples.

Results

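The mouse genes named Zfp and a number encode zinc finger proteins, which belong to the largest family of DNA-binding regulators of mammals. Most carry a row of C2H2 fingers, which are short folds that can bind a few bases of DNA. In each finger a pair of cysteines and a pair of histidines hold a zinc ion. Many of the proteins begin with a KRAB domain that recruits the corepressor Trim28 to silence retroelements and other targets. A smaller group carries fingers of other kinds and acts on RNA, on the ribosome or on ubiquitin. Their mRNAs were examined for 5-methylcytosine (m5C), a base mark that bisulfite leaves as C while unmethylated C is converted and read as T. Nsun6 is an m5C writer known for the motif CTCCA, and Nsun2 is the writer known for C-rich stems with G after the target, written here as CNGGG.

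The members were all listed sites whose gene symbol began with Zfp followed by a digit, without symbols holding -ps. They were 488 of 32378 sites and lay in 202 genes, of 407 genes with such a symbol in GENCODE M21. The measured value was the level, which is the number of unconverted reads divided by the coverage of a cytosine in 1 library. The libraries came from heart, kidney, spleen, small intestine and liver of female C57BL/6J mice aged 8 weeks, either wild type (WT) or Nsun6 knockout (KO, deletion of exons 3 and 4 of Nsun6 in the whole animal by CRISPR/Cas9), with 2 libraries for each tissue and genotype and 20 in all. Nothing in the labels tells if a group's libraries were made from different mice, so each p-value covers only the spread between these libraries, which may be technical.

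Depth over all listed sites was between 1230665 and 4640168 reads per library, and between 4004 and 37267 of those reads fell on Zfp sites. For each tissue, the summed share of reads on its own marker genes was higher in each of its 4 libraries than in any library of another tissue, although 5 of 8 heart markers had no listed site. Nsun6 itself had no listed site, so the deletion could not be read from its own reads. Over the whole table, CTCCA sites that met the criteria given below numbered 22 in heart WT and 0 in heart KO, and 16 in kidney WT and 2 in kidney KO.

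The sites that recurred, which the authors passed in at least 2 libraries, numbered 5, and their sequences are shown first because the recurrent values below turn on them. Each line gives 21 nt of the mRNA strand from the mm10 genome, 5′ to 3′, with the measured cytosine in capitals.
Zfp652, chr11:95831468, plus strand: gggctgggagCaggggttcag
Zfp775, chr6:48620228, plus strand: gcagcttccgCcagaagcagc
Zfp866, chr8:69764402, minus strand: atgagtttgcCacatgagtgg
Zfp874b 5′ site, chr13:67473127, minus strand: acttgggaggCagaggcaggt
Zfp874b 3′ site, chr13:67473013, minus strand: aaaaaaaaaaCaaaagagaaa
None of these 5 sites read CTCCA, and 1, the Zfp652 site, read CNGGG. The Zfp775 site was in the coding part of exon 3, within the codons of a zinc finger, and the other 4 sites were in 3′ UTRs, in exon 7 of Zfp652 and in exon 4 of Zfp866 and of Zfp874b.

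The sequence and the annotation of these sites set limits on which mRNA was read. Both Zfp874b sites were in soft-masked repeat sequence, and the 21 nt around the 5′ site stood at 22 listed sites of the table, among them a second site of Zfp866. The Zfp652 site was also within an exon of Phospho1 on the same strand, and so were 3 further Zfp652 sites, so that reads of these 2 genes could not be told apart there. Phospho1 encodes a phosphatase of bone mineralization, whereas Zfp652 encodes a transcriptional repressor. Among all members, 9 sites were within a same-strand exon of another gene and 35 faced an antisense exon.

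The CTCCA motif of Nsun6 was rare among the members. It was found at 5 of 488 Zfp sites (1.02%) and at 302 of 32378 listed sites (0.933%). The 5 sites are shown because they are the only members with the motif of the deleted enzyme, with the motif in capitals.
Zfp335, chr2:164892078, 3′ UTR of exon 28: tacttagggcCTCCAgatact
Zfp113, chr5:138144549, 3′ UTR of exon 5: tctgtcccacCTCCAacaatt
Zfp93, chr7:24275657, coding part of exon 4: gtgggcacacCTCCAggccca
Zfp260, chr7:30106340, 3′ UTR of exon 3: ccaagctggcCTCCAgtttct
Zfp358, chr8:3496589, coding part of exon 1: ttggccaagcCTCCAgcctca
Each of the 5 was passed in a single library and had 0 unconverted reads in every other library that listed it. In the WT, Zfp335, a regulator of transcription, had 7 of 47 reads unconverted in liver replicate 1, Zfp113 had 11 of 25 in spleen replicate 2 and Zfp93 had 10 of 43 in heart replicate 2. In the KO, Zfp260 had 4 of 26 in small intestine replicate 2 and Zfp358 had 3 of 27 in small intestine replicate 1. The motif was thus seen at single-library sites in both genotypes, and none of the 5 met the criteria in a group. CNGGG was found at 11 Zfp sites (2.25%) and at 1439 listed sites (4.44%).

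The mRNAs carried the sites along their whole length. Of the 488 sites, 282 were in coding sequence (57.8%), 150 in 3′ UTRs (30.7%), 40 in 5′ UTRs (8.2%) and 14 in noncoding exons, and 2 were outside exons. By codon position, 84 coding sites were at the first base, 91 at the second and 107 at the third. The zinc fingers themselves held 82 of the 282 coding sites (29.1%, exact binomial 95% interval 23.8 to 34.8%), and they also held 28.75% of all cytosines in the coding sequence of the same 150 transcript models. The linkers between neighbouring fingers held 10 sites (3.55%, 1.71 to 6.42%) and 6.35% of those cytosines. These intervals cover counting error only. The share in fingers was therefore close to the share of cytosines that fingers supply, and the share in linkers was below it with an interval that reached it.

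The genes themselves were spread over the genome with clusters on a few chromosomes. Chromosome 7 held 22.7% of the sites, in 47 genes, and chromosome 17 held 51 sites, in 25 genes, while chromosome 10 held 2 sites in 2 genes. No shares by chromosome, and none by mRNA region as above, are given for all listed sites. A single site was listed for 89 of the 202 genes, and 27 genes had at least 5. The most were listed for Zfp106 (12), Zfp276 (11), Zfp236 (8) and Zfp622 (8), followed by Zfp553, Zfp652 and Zfp653 with 7 each. Zfp106 encodes an RNA-binding protein needed for motor neurons and muscle in mice, and its 12 sites lay in 6 coding and 6 3′ UTR positions. Of the 11 Zfp276 sites, 10 were in the 3′ UTR, and 5 of those faced an exon of the antisense gene Fanca. Among 443 members whose 51 nt window was found in an annotated transcript, 30 (6.77%) had the same window, after C-to-T conversion, in a transcript of another gene, against 6.68% for all listed sites.

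Nearly every member was a site of a single library. The authors passed 483 of 488 Zfp sites (99%) in 1 library, 4 in 2 libraries and 1 in 3. The share passed in at least 2 libraries was 1.02% for the members (exact binomial 95% interval 0.333 to 2.37%) and 2.88% for all listed sites (2.71 to 3.07%). These intervals cover counting error only, and sites that share genes, reads or libraries are not independent. Both genotypes and all 5 tissues contributed, but the libraries of 1 group differed widely. Small intestine WT passed 7 and 3 Zfp sites and KO 38 and 8. Liver WT passed 15 and 30 and KO 0 and 1. Spleen passed 12 and 80 in WT and 10 and 78 in KO, so that its replicate 2 libraries were the highest of all. Kidney passed 0 and 20 in WT and 3 and 40 in KO, and heart 45 and 46 in WT and 58 and 0 in KO. In spleen and in kidney, replicate 2 of both genotypes passed between 20 and 80 Zfp sites and replicate 1 between 0 and 12. The number over all listed sites moved with them, from 115 in liver KO replicate 2 to 4679 in spleen KO replicate 2, and the part of this library difference in the Zfp counts was not tested.

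**Figure D1:**
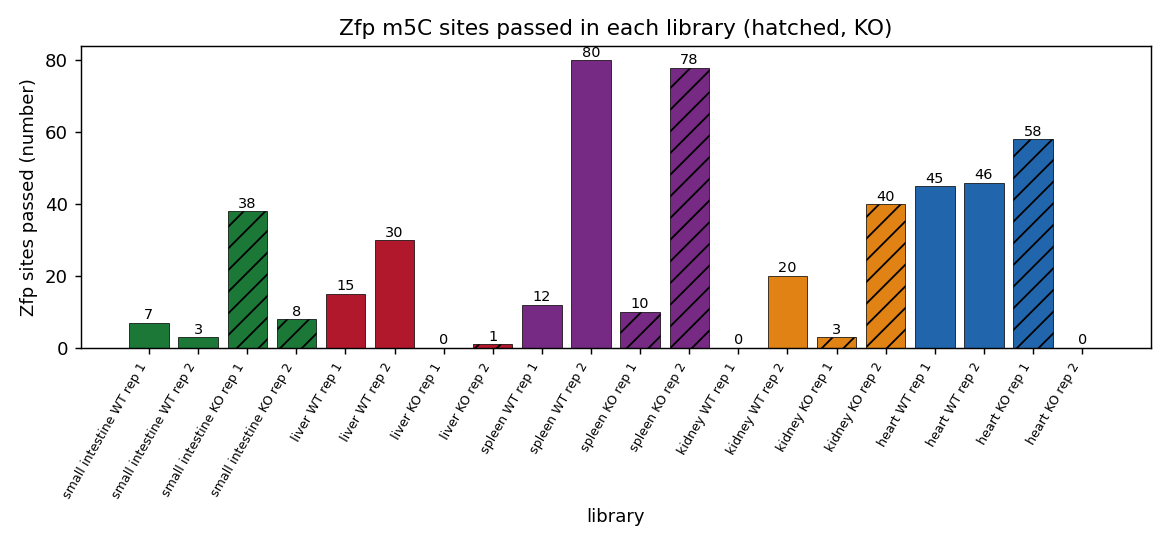
Number of Zfp m5C sites passed by the authors (y axis) in each of the 20 libraries (x axis); colours mark tissues and hatched bars are KO. The bars run from 0 in liver KO replicate 1, kidney WT replicate 1 and heart KO replicate 2 to 80 in spleen WT replicate 2, and the 2 libraries of a group often differ more than the genotypes.

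Passing was marked library by library, so the other library of the same group gave a second reading of a site. It may be a technical repeat. Sites passed in both libraries of a group were kept and entered from each of them. This was so for the Zfp775 site in heart WT, and for 206 of all listed sites there. There were 252 cases in which a Zfp site passed in 1 library and had at least 20 reads in the other. The other library had 0 unconverted reads in 239 of them (94.8%) and a level of at least 0.05 in 7 (2.78%). Over all listed sites the same shares were 85.4% of 19485 cases and 10.2%. Pooled over the 252 cases, 72 of 17327 reads (0.416%) were unconverted in the other library, while the median level was 0.174 in the library that passed the site. Over all listed sites the pooled share was 12.8%. The mean level in the other library was 0.00423 for the members and 0.0214 for all listed sites. For the members, the level in a passing library was therefore seldom seen again in its partner. The median coverage was 18 to 68 reads a library at Zfp sites and 26 to 82 at all listed sites. The part of depth in these shares, and in the share passed in at least 2 libraries, was not tested.

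**Figure D2:**
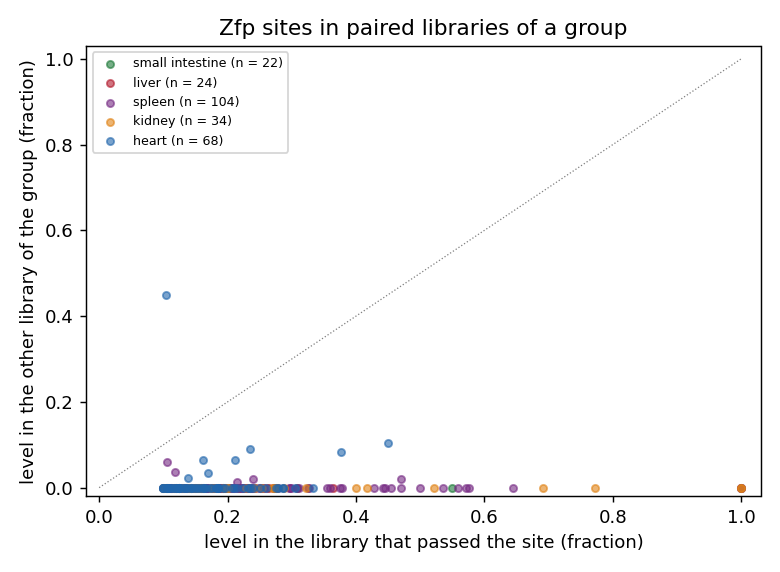
Level in the library that passed a Zfp site (x axis, fraction) against the level in the other library of the same group (y axis, fraction) for the 252 cases with at least 20 reads in the other library; colours mark tissues and the dotted line marks equal levels. Points lie along 0 on the y axis in 239 cases.

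Deep sites showed the same pattern with a tighter limit. There were 12 sites, in 9 genes, that had at least 20 reads in every library, and outside the passing library 2 of 33258 reads (0.00601%) were unconverted there. No such count is given for the 1915 listed sites of that depth, so it is not set against a background. The deepest was in the 3′ UTR of Zfp106 (chr2:120509132), which was passed in liver WT replicate 2 with 10 of 84 reads unconverted. The other 19 libraries had 0 of 8265 reads unconverted, an upper limit of 0.0363%, and they included 2238 and 1973 reads in heart WT. Likewise Zfp622, a factor of ribosomal large subunit maturation, had a level of 0.122 at its site in exon 6 (chr15:25997278) in kidney KO replicate 2 and 0 of 4348 in the other 19 libraries, a limit of 0.069%. Zfp330 (chr8:82764254), also covered by at least 20 reads everywhere, had 1 of 3740 reads unconverted outside the library that passed it. Further sites of Zfp106 (chr2:120508316) and of Zfp91 (chr19:12795209), which had under 20 reads in 1 and 3 libraries, had 1 of 3631 and 0 of 3515. Such limits cover counting error only, because reads were not marked by molecular identifiers.

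A few members were unconverted in every read of 1 library. A level of 1 was reached by 9 sites with at least 20 reads. Those of Zfp672 (25 of 25 reads), Zfp777 (28 of 28), Zfp638 (32 of 32), Zfp764 (20 of 20) and Zfp428 (26 of 26) were all in spleen KO replicate 2. Those of Zfp7 (20 of 20), Zfp292 (21 of 21), Zfp61 (21 of 21) and Zfp526 (21 of 21) were all in kidney KO replicate 2. None of the 9 had an unconverted read in any other library, over 25 reads for Zfp7 and up to 532 reads for Zfp777. In all members 1.84% reached a level of 0.9 in a library with at least 20 reads, and in all listed sites 3.14%.

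The criteria used here asked for a coverage of 20, for 2 unconverted reads in each library of a group and for a mean level of 0.05 as the lowest values. They follow those of the study, which set the level minimum for WT, and were applied here to the mean of each group, KO groups too. They were met by 12 pairs of a Zfp site and a group, at 9 sites in 6 genes. In heart WT, 4 of 177 Zfp sites with enough reads met them, in Zfp652, Zfp874b, Zfp106 and Zfp775, where 3.59% of all sites with enough reads did. In heart KO it was 3 of 94, in Zfp652, Zfp874b and Zfp106 (all sites, 4.38%). Spleen WT had 2 of 250, both in Zfp874b (all sites, 0.858%), and spleen KO 2 of 248, in Zfp874b and Zfp866 (all sites, 0.87%). Liver WT had 1 of 69, in Zfp444 (all sites, 1.68%), and liver KO 0 of 60 (all sites, 2.28%). No Zfp site met them in small intestine WT among 81 (all sites, 1.27%), small intestine KO among 120 (all sites, 1.17%), kidney WT among 145 (all sites, 1.29%) or kidney KO among 195 (all sites, 1.36%).

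Zfp874b was the member with the most recurrent signal. At its 5′ site, the levels were 0.212 and 0.0636 in heart WT, 0.17 and 0.0345 in heart KO, 0.0588 and 0.105 in spleen WT and 0.0737 and 0 in kidney KO, each from 29 to 165 reads. In heart this gave a mean of 0.138 ± 0.105 in WT and 0.102 ± 0.0957 in KO (SD, n = 2), so that replicate 1 was the higher library in both genotypes and the genotypes overlapped. At the 3′ site, small intestine KO replicate 1 had 23 of 108 reads unconverted, spleen WT 1 of 75 and 3 of 155, and spleen KO 3 of 82 and 17 of 143. A site between them, chr13:67473121, had levels of 0 and 0.0459 in heart WT and 0.235 and 0.0909 in heart KO, so that it met the criteria in heart KO and not in heart WT. The same site also met them in spleen WT, with a mean of 0.0857 ± 0.0103 (SD, n = 2), so it was not a site of the KO alone.

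The other recurrent sites were measured in fewer libraries. The Zfp775 site had levels of 0.45 and 0.105 in heart WT, the first from 20 reads, and of 0 in heart KO replicate 1 over 24 reads, and heart KO replicate 2 gave no value, so this site was not tested for genotype. The Zfp652 site at chr11:95831468 had 9 of 72 and 0 of 64 in heart WT and 9 of 52 and 0 of 11 in heart KO, and 0 in all 4 small intestine libraries. Zfp866 had 2 of 55 and 4 of 91 in spleen WT, 2 of 95 and 16 of 34 in spleen KO and 6 of 26 in heart WT replicate 2. In heart for Zfp652 and in spleen KO for Zfp866, 1 library of a group was high and its partner was near or at 0.

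**Figure D3:**
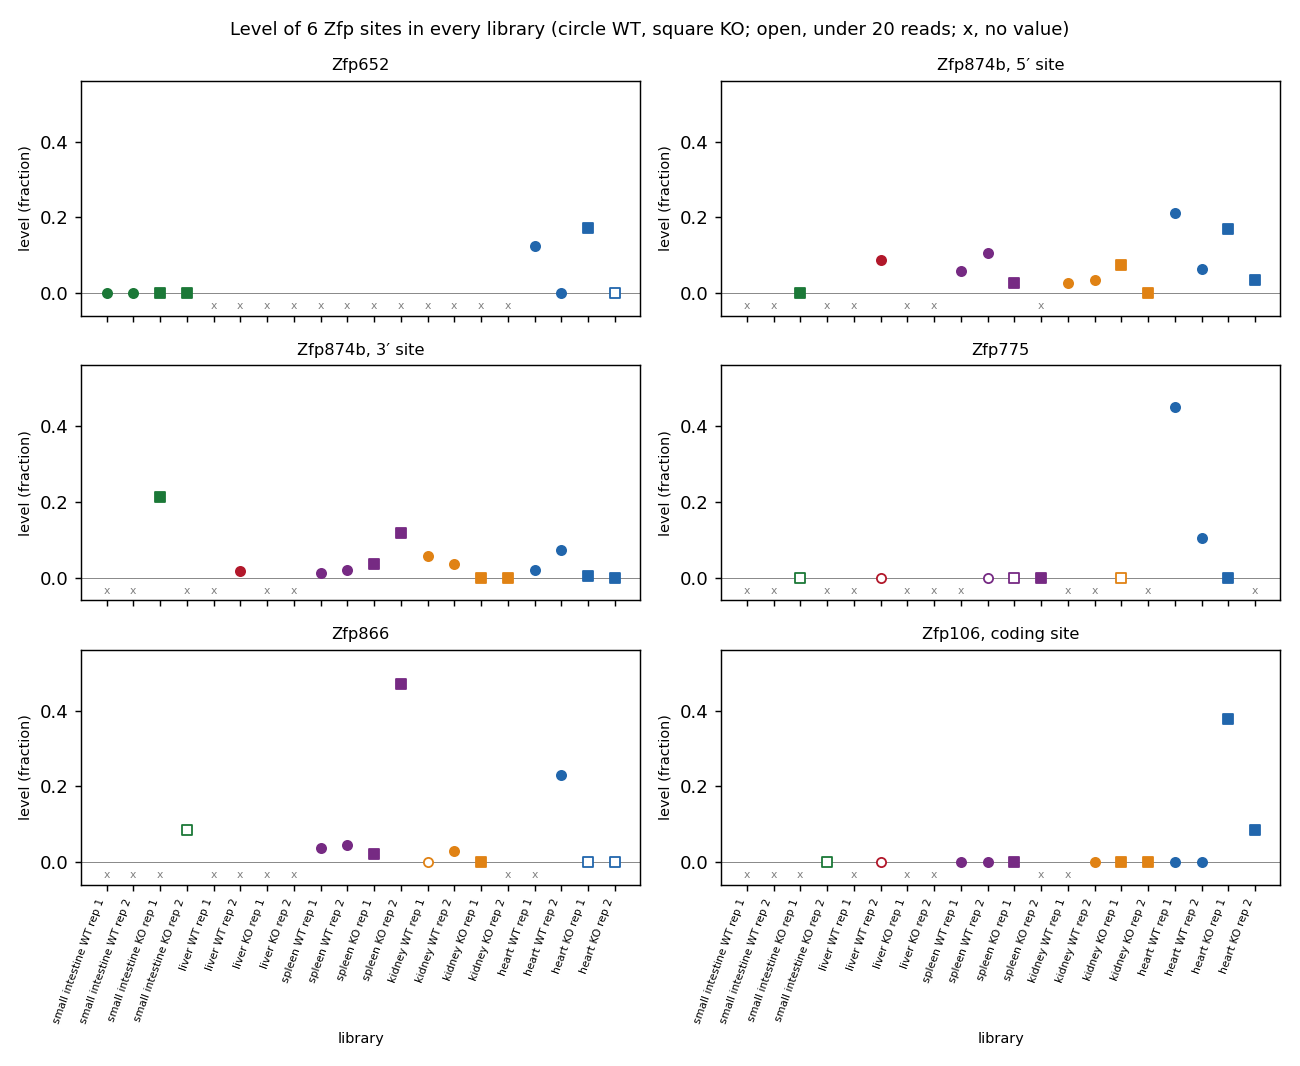
Level (y axis, fraction) of 6 Zfp sites in each library (x axis); circles are WT, squares KO, open symbols have under 20 reads and x marks a library without a value. High points at Zfp866 and at Zfp652 stand beside partner libraries near 0, whereas Zfp775 is above 0 in both heart WT libraries.

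Zfp444 was the member that met the criteria in liver. Its site in exon 3 (chr7:6184000, plus strand, ggcgatgcagCagggccacgt, measured cytosine in capitals, a CNGGG context) had 3 of 31 and 9 of 108 reads unconverted in liver WT and 0 of 14 and 0 of 19 in liver KO. Both KO libraries were under 20 reads, so the site was not tested, and 0 of their 33 pooled reads gave an upper limit of 0.0909, beside a WT mean of 0.0901 ± 0.0095 (SD, n = 2). The library that passed it was heart KO replicate 1, with 18 of 94 reads unconverted, while heart WT had 0 of 22 and 0 of 16. In replicate 1 of other groups it had 1 of 34 in small intestine WT, 1 of 80 in small intestine KO, 1 of 45 in spleen KO and a level of 0.0385 in kidney KO, and the remaining libraries with a value had 0.

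The loss of Nsun6 was asked of each site with at least 20 reads in all 4 libraries of a tissue that met the criteria in either genotype. The design allowed 7 Zfp tests, 2 in spleen and 5 in heart, and none in small intestine, liver or kidney. By edgeR's quasi-likelihood test on unconverted and converted reads, 0 of 7 were called in either direction after Benjamini-Hochberg adjustment, 1, in heart, had an unadjusted p under 0.05, where 12.2% of all sites tested in heart had one, and limma on the logit scale also called 0. Over all sites tested, 2.1% fell and 0.191% rose in heart (of 523), and 0% fell and 1.32% rose in spleen (of 152). With 7 tests, the count of 0 is close to that background.

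The test with the smallest p was a coding site of Zfp106 in exon 10 (chr2:120527033, minus strand, agcctcatatCacgagaacaa, measured cytosine in capitals). Its level was 0 of 47 and 0 of 46 reads in heart WT and 23 of 61 and 3 of 36 in heart KO. The site was listed through heart KO replicate 1 and met the criteria in heart KO only, so its higher level in KO was selected for. By edgeR the unadjusted p was 0.0219 and the adjusted p was 0.287. A second Zfp106 site in the 3′ UTR (chr2:120508261) went the other way, with 27 of 196 and 15 of 647 in heart WT and 7 of 326 and 11 of 268 in heart KO (log2 difference in odds -1.01, edgeR adjusted p = 0.724). This second site met the criteria in heart WT only, so a lower level in KO was selected for. The genotypes overlapped there.

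The other 5 tests had larger p-values. The Zfp652 site at chr11:95830853 had 13 of 199 and 50 of 309 reads unconverted in heart WT and 9 of 135 and 4 of 57 in heart KO (edgeR adjusted p = 0.937). It lies in exon 7, like the site shared with Phospho1, so its reads may include those of Phospho1. In heart, the edgeR adjusted p was 0.556 for the Zfp874b site at chr13:67473121 and 0.992 for the 5′ site. In spleen it was 0.842 for the 3′ site of Zfp874b and 0.86 for Zfp866, where spleen KO replicate 2 alone lay above the rest. Zfp874b at chr13:67473121 also entered its heart test through KO alone, and so did both spleen sites. The 5′ site entered its heart test through WT alone. Counting reads of the 2 libraries as a single pool, Fisher's exact test put 4 of the 7 higher in KO. These 4 were the sites that entered through KO alone, so their direction was selected for. The test also leaves out the spread between libraries, and no share called over all sites is given beside its count.

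Across tissues few members could be compared site by site. The model of genotype over all 5 tissues and the model of WT tissues asked for 20 reads in every library and for the criteria in at least 1 group, and 0 Zfp sites were left in each, of 216 and 208 sites tested. With at least 3 unconverted reads over the libraries in place of the criteria, 12 Zfp sites were tested for genotype and 10 between WT tissues, and edgeR called 0 in both. No share called over all sites is given for this setting, so these counts are not set against a background. Among listed sites that were passed only in other tissues, WT libraries still covered part of the members with at least 20 reads in both libraries, namely 50.6% in spleen, 30.1% in heart, 29.6% in kidney, 16.2% in small intestine and 10.2% in liver. In the same order the shares over all listed sites were 42.3, 34.5, 35.6, 27.7 and 18.3%. Zfp sites were thus least often readable in liver, as were all listed sites.

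Coverage itself was compared as a measure of how much of an mRNA each library held. Reads over Zfp sites made up 0.926 to 1.33% of reads over all listed sites in spleen, 0.612 to 1.02% in heart, 0.632 to 0.801% in kidney, 0.436 to 0.641% in small intestine and 0.247 to 0.498% in liver. All 4 spleen libraries were above the small intestine, liver and kidney libraries. A site was listed only where some library passed it with at least 20 reads. Spleen passed 12 and 80 Zfp sites in WT and 10 and 78 in KO. Sites with high coverage in spleen could thus be favoured, and the part of this in the Zfp shares was not tested. In liver, marker genes such as Alb took 14.2 to 35.8% of all reads over listed sites, and erythroid genes took from 0.00365 to 4.35% in the 2 spleen WT libraries, and their part in the Zfp shares was not tested. In such bulk tissue, fewer cells of a type and less RNA per cell cannot be told apart.

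One site per gene with a value in all 20 libraries gave 2441 genes to test, 17 of them Zfp. Between WT tissues, edgeR with Benjamini-Hochberg adjustment called 9 of the 17 Zfp genes, beside 45.3% of all genes tested. Without heart WT replicate 1 it called 5. Values below are CPM, counts scaled to the same total of reads over the tested sites after TMM scaling, for single libraries or as mean ± SD of 2. They compare 1 site of a gene between tissues, not genes with each other.

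Among members that act on RNA, translation or ubiquitin, Zfp106, Zfp622, Zfp638 and Zfp91 were called. Zfp106 had 4069 and 2595 CPM in heart WT, and its other WT libraries lay between 78 and 220. Its heart mean was 3332 ± 1042, 18.1 times that of kidney, the next tissue (edgeR adjusted p = 9.13e-06). Zfp622 was highest in small intestine (1303 and 824) and lowest in heart (92.7 and 136.8, edgeR adjusted p = 0.0155). Zfp638, a nuclear protein that silences retroviral DNA, was highest in spleen (332.8 ± 40.02) and lowest in small intestine (57.5 ± 7.27, edgeR adjusted p = 0.00954). Each of these 3 had both WT libraries of its highest tissue above all other WT libraries. The Zfp622 call was lost without small intestine WT replicate 1 (edgeR adjusted p = 0.119) and without either heart WT library (0.0859 and 0.0597), and those of Zfp106 and Zfp638 were kept in all settings that tested them.

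Zfp91, a ubiquitin ligase of the noncanonical NF-κB pathway, was called (edgeR adjusted p = 0.00215), but its libraries differed within groups. Heart WT had 749 and 229 CPM, liver WT 117.3 and 405 and small intestine WT 46.96 and 41.4. In KO the spread was wider, with 1955 and 103.02 in heart, 1157 and 46.6 in spleen, and 421 and 52.02 in kidney. In 8 of the 10 groups the library with more Zfp91 reads was also the library in which more sites of the whole table were passed. Of all genes tested, 9.38% were so ordered in at least 8 groups, and by the median log2 ratio between these libraries (1.60) Zfp91 stood at percentile 99.4 of the genes tested. The part of this library difference in the Zfp91 values was not tested. Zfp598, a ubiquitin ligase that marks collided ribosomes, was not called (edgeR adjusted p = 0.153).

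Among the mRNA decay factors with CCCH fingers, which bind AU-rich elements, only Zfp36l1 had a site in all libraries. Its coverage was 318 and 313 CPM in spleen WT and 584 ± 91.5 in spleen KO, and its other WT tissues had means from 66.97 to 104.4 (edgeR adjusted p = 0.0157 between WT tissues). Both spleen WT libraries stood above all other WT libraries, and the call was lost without either of them (edgeR adjusted p = 0.0585 and 0.0687) or without small intestine WT replicate 1 (0.0515). The decay factors had 10 listed sites in Zfp36, Zfp36l1 and Zfp36l2, all passed in a single library each. The coding site of Zfp36 at chr7:28378242 had 5 of 47 reads unconverted in heart WT replicate 1 and 0 of 1888 in the other libraries.

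The DNA-binding members that were called between WT tissues were Zfp131, Zfp146, Zfp263 and Zfp787. Zfp263, a KRAB and SCAN domain protein, was highest in spleen (243 ± 80.7) and lowest in heart (29.2 ± 5.25, edgeR adjusted p = 0.0042). Zfp131, a BTB domain protein, had 523 and 149 in spleen WT and 49.1 and 49.98 in heart WT (edgeR adjusted p = 0.0165). Zfp146, a protein built almost only of fingers, was lowest in small intestine (41.6 ± 9.01) and highest in heart, where its libraries gave 384 and 131.5 (edgeR adjusted p = 0.0281). Zfp787 was highest in liver (366 ± 15.9) and lowest in spleen (64.4 ± 18.02, edgeR adjusted p = 0.0296). The liver libraries of Zfp787 and the spleen libraries of Zfp263 stood above all other WT libraries, whereas the highest tissues of Zfp131 and Zfp146 overlapped others. These calls depended on single libraries. Zfp131 was lost without spleen WT replicate 1 (edgeR adjusted p = 0.0651) and without either heart WT library (0.0859 and 0.0724). Zfp146 was lost without either small intestine WT library (0.114 and 0.0754) and without heart WT replicate 1 (0.118), and Zfp787 without any 1 of the spleen WT or heart WT libraries (0.0523 to 0.0801). With reads summed over the sites of a gene, Zfp146 and Zfp787 had adjusted p of 0.0534 and 0.0586 by edgeR. Zfp263 was called in all 24 settings that tested it. Of the 8 Zfp genes that were not called, the smallest adjusted p was 0.146, for Zfp593.

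**Figure D4:**
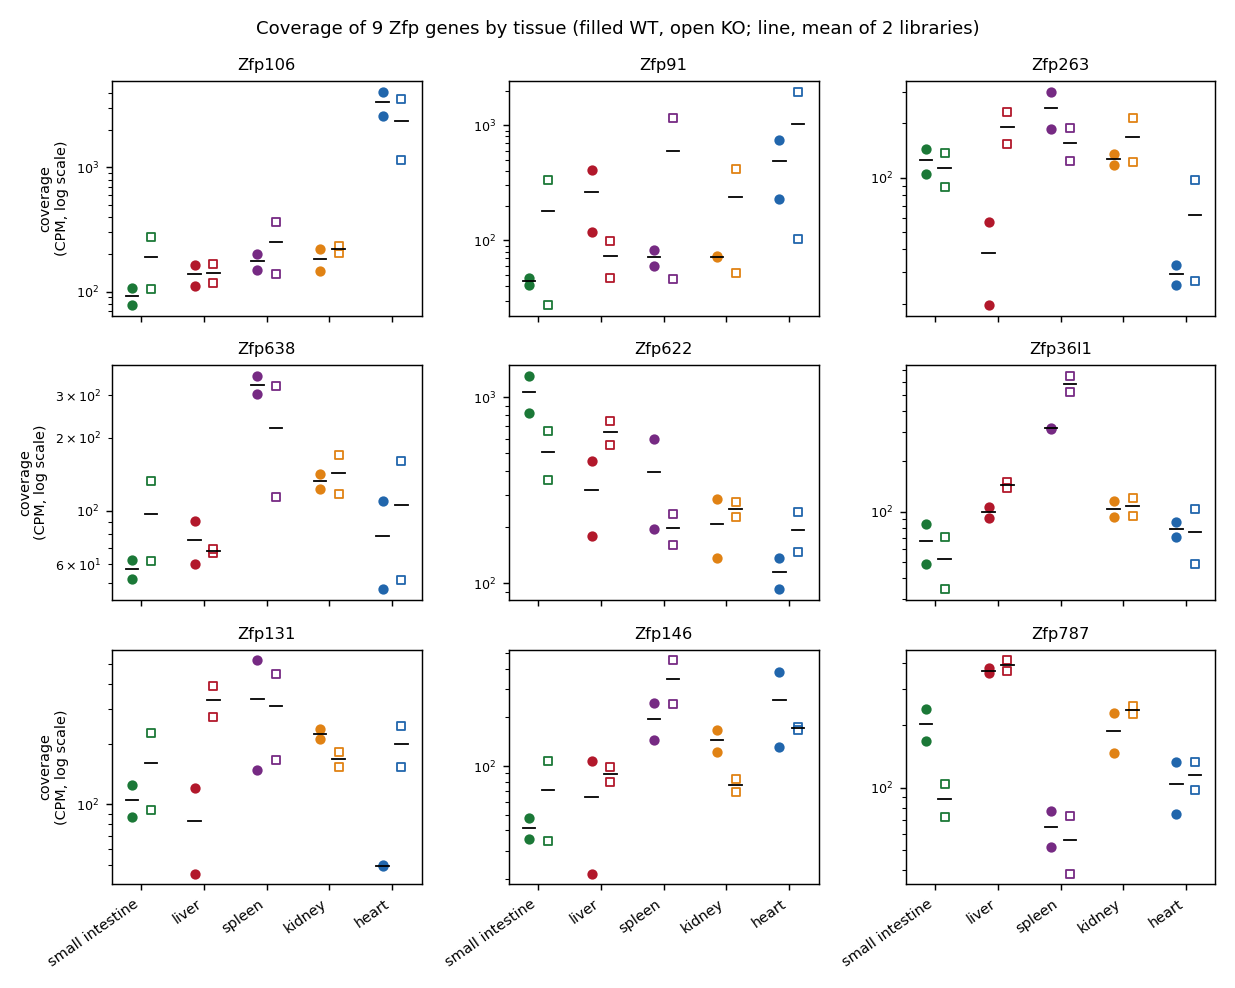
Coverage (y axis, CPM on a log scale) of the 9 Zfp genes called between WT tissues, in 5 tissues (x axis); filled circles are WT libraries, open squares KO libraries and black lines means of 2. Zfp106 is highest in heart, Zfp36l1 in spleen and Zfp787 in liver, and the Zfp91 libraries of a group lie far apart.

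By coverage, no Zfp gene was called between the genotypes. For KO against WT, edgeR called 0 of 17 Zfp genes in each of the 5 tissues, and 0% of the 2441 genes (0% in heart, 0% in kidney, 0% in spleen, 0% in small intestine, 0% in liver). DESeq2 called 0 of the 17 as well, and of all genes 18 in heart, 4 in small intestine and 0 in the other tissues. At an unadjusted p under 0.05 there were 2 Zfp genes in liver, 1 in spleen, 2 in heart and 0 in small intestine and kidney, while over all genes the shares were 6.55, 6.39, 8.23, 7.13 and 0.778% in the same order. In liver, Zfp263 had 57.1 and 19.7 CPM in WT and 231 and 153 in KO (log2 fold change 2.35, edgeR adjusted p = 0.73), and Zfp131 had 120.5 and 45.2 in WT and 274 and 391 in KO (2.02, edgeR adjusted p = 0.73). In heart, Zfp131 was higher in KO by 2.01 (edgeR adjusted p = 0.532), and Zfp592 had 120.005 and 111.8 in WT and 28.7 and 37.96 in KO (-1.80, edgeR adjusted p = 0.447). The genotypes did not overlap in these 4 cases. In spleen the gene was Zfp91, whose values are given above.

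The remaining roles held single-library sites, as did 97.1% of all listed sites, of which 3.31% met the criteria in some group. The KRAB repressors of imprinted genes and retroelements had 8 sites in 4 of 6 listed genes, none met the criteria in a group and none was passed in a second library. Zfp445, which guards imprints, had 4 of these sites, and at its 3′ UTR site chr9:122851236 8 of 40 reads were unconverted in small intestine KO replicate 1 and 0 of 1783 elsewhere. Zfp809, which silences retroviruses, had 18 of 129 at chr9:22235097 in spleen KO replicate 2 and 0 of 856 elsewhere. Zfp568 and Zfp932 had 1 and 1 passed sites with 4 of 23 and 7 of 53 reads unconverted, both in heart.

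Regulators of transcription and chromatin had 38 sites in 14 of 18 genes, with 0 passed in a second library and 0 that met the criteria. Zfp143, an activator of small nuclear RNA and other promoters, had 12 of 27 reads unconverted in spleen WT replicate 2 and 0 of 447 elsewhere. Zfp148, which binds GC-rich promoters, had 23 of 64 at chr16:33456888 in spleen KO replicate 2 and 0 of 502 elsewhere. Zfp281, a regulator of pluripotent cells, had 6 of 52 and 4 of 24 at its 2 sites. In this list the unconverted reads of each named gene came from 1 library a site.

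Members that act on RNA, translation or ubiquitin had 42 sites in 10 of 10 genes, and 2 of these sites, both in Zfp106, met the criteria in a group. Outside the members, the corepressors that KRAB domains recruit had 63 sites in 14 of 15 genes, of which 2 met the criteria in some group (3.17%), and their 1 genotype test was not called. Genes with other zinc finger names, such as Zbtb, Klf and Zc3h, had 219 sites in 69 genes, of which 3 met the criteria (1.37%) and 4 were passed in at least 2 libraries (1.83%). The members gave 9 of 488 (1.84%) and 1.02% by the same counts, and all listed sites 3.31% and 2.88%. The m5C enzymes and readers had 19 sites in 6 of 10 genes, none of which met the criteria.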

How the data were processed

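Female WT and Nsun6 KO mice gave mRNA of 5 tissues, which was treated with bisulfite and sequenced as stranded libraries. The authors called sites with an RNA m5C pipeline on mm10, per the submitters' processing notes; the labels and methods name no version of it and no aligner. The deposited table gives counts of reads (coverage) and of unconverted reads, and the level as a fraction, which equals their ratio; a deposited mark, of no unit, tells which sites the authors passed in a library. At passed sites the lowest coverage was 20, the fewest unconverted reads were 3 and the lowest level was 0.1; the lowest coverage listed at all was 10. The table holds sites passed somewhere, so the level in a passing library was selected. The p-value, signal and nonconversion columns (60) were not used.

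Members and lists were chosen with earlier results of these data known. Named genes were those tested for genotype, passed in 2 or more libraries, with most sites or deepest coverage, called or with the smallest p by coverage, up to 4 of each role list, and Zfp444, Zfp652, Zfp775 and Zfp874b, from the study's supplementary tables. Levels were tested with edgeR 4.0.16 (quasi-likelihood, unconverted and converted counts, 2-sided, adjusted over all sites tested in a tissue), or limma 3.58.1 on log2 odds with 0.5 added to both counts. Coverage counts were tested with edgeR (TMM, 1 site a gene) or DESeq2 1.42.0. Fits were tested on simulated data. Fingers were found by the C2H2 spacing in translated GENCODE M21 models. Sequences are from the GRCm38 genome of RefSeq. No 2 libraries had identical coverage. Alternatives were other minimums, tests, scalings, a replicate block and left-out libraries. Intervals are exact (Clopper-Pearson, 95%), and upper limits for 0 counts use 3 counts of the total.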

Additional observations from a re-analysis of the deposited data

How the results depend on the processing

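No Zfp site was called for genotype with a coverage minimum of 10 or 30, a level minimum of 0.1, no level criterion, limma or the replicate block, which gave 0 sites that fell and 0 that rose. Fisher's exact test on pooled reads put 4 sites higher in KO (Zfp866 and Zfp874b in spleen, Zfp106 and Zfp874b in heart). In those tissues all 4 met the criteria in KO only, so this direction was selected for. No share called over all sites is given for this test. Leaving out 1 library of each genotype group, the number of sites that fell ranged from 0 to 8 (8 and 6 in liver without WT replicate 1 and 2) and the number that rose from 0 to 25 (19 in kidney and 6 in spleen, without KO replicate 1); a single library then decided which sites met the criteria and were tested. Over the tissues there were 65 and 31 Zfp tests without WT replicate 1 and 2, and 65 and 40 without KO replicate 1 and 2. The share called over all sites is not given for these left-out libraries, so their counts are not set against a background. Over all 5 tissues the replicate block had 0 Zfp sites to test, for genotype or between WT tissues, so its 0 calls say nothing. With no level criterion 0 of 12 and 0 of 10 tested were called, and for genotype 0 of 14 and 0 of 9 without replicate 1 and 2. No share called over all sites is given for these settings or for the single libraries left out next. Leaving out single libraries, chosen after seeing the data, left 0 to 4 sites tested for genotype, with 0 called, and 0 to 6 between WT tissues, with 0 to 4 called (4 of 6 without liver WT replicate 1). With a level minimum of 0.1, 6 instead of 12 pairs of a site and a group met the criteria. By coverage between WT tissues, 9 Zfp genes were called with DESeq2, with total reads or with the block, 7 with reads summed over the sites of a gene, and 4 of 9 tested with a coverage minimum of 20; without single libraries it was 5 to 10, with 5 without heart WT replicate 1. Zfp91, Zfp106, Zfp263 and Zfp638 were called in every alternative that tested them. Without 1 replicate number no spread is left between WT tissues, so that level test and the coverage tests were not run that way. Replicate numbers were not taken as pairs, since they did not move together in every tissue: the replicate difference in log2 coverage correlated between genotypes at 0.42 in spleen, 0.40 in small intestine, 0.35 in heart, 0.11 in liver and -0.16 in kidney, over 1915 sites that are not independent. KO against WT coverage gave 0 calls in every alternative run. Levels are limited by depth, as the median Zfp coverage was 18 to 68 reads a library.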
